A study of Caenorhabditis elegans with 24 samples.

Results

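The libraries described here came from whole Caenorhabditis elegans hermaphrodites collected 96 h after blunt force trauma and from uninjured worms of the same age. The injured worms were N2 animals of wild-type genotype, raised at 25 °C on bacteria delivering RNAi against cdc-25.1, agitated at 8600 rpm for 16 s on day 1 of adulthood and sequenced 96 h later (4 libraries). The control worms were of the same strain, temperature, RNAi and age and received no agitation (4 libraries). These 8 libraries belong to a time course of 24 libraries in 6 groups, with injured and control worms also taken at 8 and 48 h. The labels give the strain as N2, whereas figure legends of the study name the sterile strain CF512 for sequencing after trauma, and the labels were followed. Each library was made from poly(A) RNA of a pool of many worms, and the labels call the libraries of a group biological replicates without saying what was kept separate, so that every p-value measures the spread between these samples.

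Expression was measured as RPKM, the reads of a gene divided by the length of its exons and scaled to the mapped reads of the library, which allows levels to be compared between genes. A gene was included when its RPKM reached 1 in at least 4 of these 8 libraries, which held for 13781 of the 46739 features of the table. Of these, 11830 reached an RPKM of 1 in all 8 libraries. The 554 genes that reached it in exactly 4 libraries had a median level of 1.12 RPKM, and the 379 features just outside, with 3 such libraries, had a median of 0.866 RPKM.

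In the adult hermaphrodite the intestine secretes yolk lipoproteins, called vitellogenins, which growing oocytes take up through the receptor RME-2, and the same tissue makes digestive enzymes and most of the secreted proteins that act on ingested microbes. The germline loads oocytes with the maternal transcripts, ribosomes and cell cycle proteins that the embryo will use. RNAi against cdc-25.1, a phosphatase gene that drives germ cell division, is a means of keeping adults without progeny. FOS-1 is the C. elegans Fos protein, which forms part of AP-1, and the study followed it together with the lysozyme gene lys-3 and the tyrosine hydroxylase gene cat-2. VHP-1 is a phosphatase that switches off stress-activated MAP kinases.

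The 8 libraries were alike in depth. The steps between low values put 1 RPKM over a transcript of 1 kb at an estimated 19.3 to 24.9 reads, and rRNA genes took 0.711 to 1.14% of the summed RPKM. The 10 most abundant features held 5.05 to 5.75% of the summed RPKM in injured worms and 8.97 to 9.79% in control worms. Transcripts of cdc-25.1, the gene targeted by RNAi (WBcel235 chromosome I, bases 6469386 to 6471922, minus strand), stood at 137, 198, 252 and 118.54 RPKM in the injured libraries, against 156, 17.6, 46.4 and 47.9 RPKM in the control libraries. The groups overlapped, since control library 1 lay far above the other control libraries, and the log2 difference of 1.75 had an adjusted p of 0.00843 in limma. Without injured library 2 that adjusted p was 0.0614. Without control library 1 the log2 difference was 2.29 (adjusted p 0.000268). Every library came from worms on this RNAi, so these values do not measure how strongly the gene was silenced.

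The comparison asks which transcripts differed 96 h after a single injury, and most of those tested did. At an adjusted p below 0.05 in limma, 10368 of 13781 genes (75.2%) differed, with 5684 (41.2%) higher and 4684 (34.0%) lower in injured worms. A change of at least 2-fold was found for 4971 genes (36.1%), of which 2536 (18.4%) were higher and 2435 (17.7%) lower. A change of at least 4-fold was found for 410 higher and 512 lower genes. In 9603 genes (69.7%) the injured and control libraries did not overlap at all. With so large a background, a list of genes is read below against 41.2% higher and 34.0% lower, and not against 0. Groups that did not overlap were likewise the common case, at 69.7% of all genes, also where single genes are described below. The median log2 difference of all genes was 0.10, and scaling the libraries by median-of-ratios factors moved it to -0.01, a shift of 0.11. Of the called genes, 54.8% were higher as deposited and 50.1% after that scaling.

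**Figure D1:**
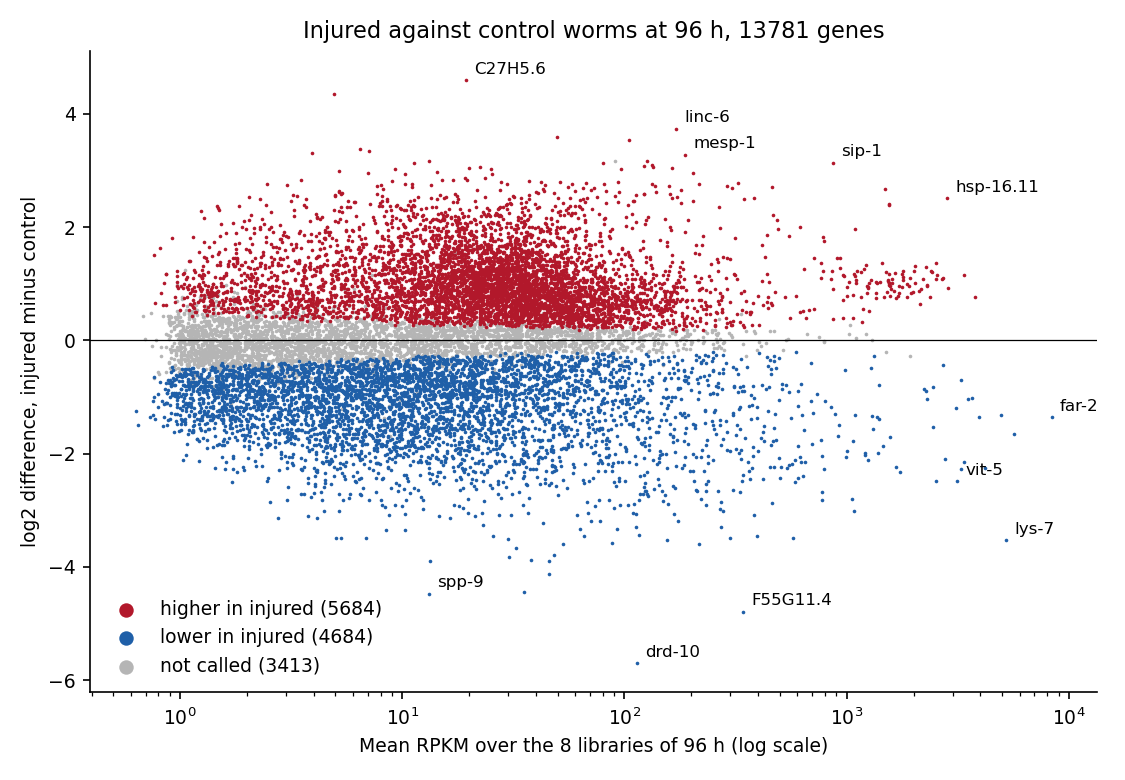
Log2 difference between injured and control worms (vertical) against mean RPKM over the 8 libraries (horizontal, log scale) for each of the 13781 genes, with red for genes higher in injured worms, blue for genes lower and grey for genes not called. Differences ranged from -5.70 to 4.60, and among the most abundant genes far-2, lys-7 and vit-5 lay below 0 and hsp-16.11 and sip-1 above it.

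The most abundant transcripts were largely different between the groups. In injured worms the leading features were far-2, hsp-16.11, eef-1A.1, rpl-10 and rps-30. In control worms they were far-2, lys-7, ttr-51, C08F11.11 and perm-4. The fatty acid and retinol binding protein gene far-2 led both groups, with 4840 ± 1490 RPKM in injured and 11892 ± 847 RPKM in control worms (SD, n = 4 in each group here and below). Its log2 difference of -1.35 in limma was -0.50 under quantile normalization, where it was not called (adjusted p 0.0613). The lysozyme gene lys-7, known for its part in defence against ingested bacteria, stood at 961, 1170.2, 584 and 728 RPKM in injured libraries, against 8920.4, 10168, 10502 and 8763 RPKM in control libraries. In limma this was a log2 difference of -3.52 ± 0.18 (SE) and an adjusted p of 3.22e-07. The small heat shock protein gene hsp-16.11 moved the other way, with 3412, 5993, 4743 and 5164 RPKM in injured libraries and 749, 862, 846 and 863 RPKM in control libraries (2.51 on the log2 scale, adjusted p 5.31e-07). Neither gene had a library of one group within the range of the other.

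Among the 15 largest falls were secreted proteins of the intestine and several uncharacterized small proteins. The largest fall was that of drd-10 (chromosome V, bases 7007607 to 7008299, plus strand), a gene named for its drop under dietary restriction, with 5.70, 11.2, 0.99 and 2.49 RPKM in injured libraries and 181, 247, 188 and 274 RPKM in control libraries. Its log2 difference was -5.70 ± 0.49 (SE). F55G11.4, a CUB-like domain gene of the kind induced by pathogens, had 23.8, 30.4, 16.7 and 23.8 RPKM in injured and 621, 567, 754 and 696 RPKM in control libraries, a log2 difference of -4.79. The same set held the caenopore genes spp-9 (-4.47) and spp-2 (-3.60), the C-type lectin gene clec-173 (-3.53), the cytochrome P450 gene cyp-34A9 (-3.60), the DAF-16 pathway genes dod-24 (-3.87) and dod-3 (-3.58), the insulin-like gene ins-19 (-3.89), the neuropeptide-like gene nlp-39 (-3.67) and clx-1 (-4.44). The nematode-specific peptide genes nspc-5 (-3.90) and nspc-12 (-3.79) and the uncharacterized C54C8.12 (-4.12) and F01D5.2 (-3.83) completed it. All 15 had adjusted p-values of at most 2.58e-06 in limma, after being chosen among called genes without overlap between the groups. spp-9 averaged 0.53 RPKM in injured worms, under the 1 RPKM of the filter, and 25.7 RPKM in control worms, whose libraries were widely spread.

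The 15 largest rises were led by C27H5.6 (chromosome II, bases 7185278 to 7187210, minus strand), an uncharacterized gene, with 54.9, 41.7, 27.4 and 26.7 RPKM in injured libraries and 0.38, 1.47, 1.12 and 1.30 RPKM in control libraries. F13E9.19 reached 9.63, 9.24, 12.0 and 8.56 RPKM in injured libraries and was listed at 0 in all 4 control libraries. The noncoding linc-6 on chromosome X had 233, 345, 330.2 and 355 RPKM in injured and 29.1, 28.8, 25.7 and 12.6 RPKM in control libraries, and linc-115, also on X, had 6.45, 8.49, 7.38 and 7.67 RPKM in injured and 0.24, 0.22, 0.64 and 0.19 RPKM in control libraries. F13E9.19, linc-115 and F43D2.2 were under 1 RPKM in all 4 control libraries, so that they passed the filter through the injured libraries alone. Genes of the oocyte were among the rest. The meiotic spindle gene mesp-1 had 341 ± 93.1 RPKM in injured and 34.7 ± 10.2 RPKM in control worms, and egg-1, which encodes an oocyte surface receptor-like protein needed for sperm entry, had 237 ± 63.8 RPKM in injured and 27.5 ± 7.92 RPKM in control worms. The small heat shock gene sip-1, known to be expressed in oocytes and embryos, had 1560 ± 435 RPKM in injured and 174 ± 41.2 RPKM in control worms. The others were the kinesin-like gene klp-10 (3.17) and the uncharacterized F23A7.8 (3.60), Y75B12B.1 (3.54), F43D2.2 (3.38), F43G6.3 (3.34), T01C3.3 (3.17), C01G8.1 (3.14) and Y102A5C.5 (3.13), all as log2 differences.

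**Figure D2:**
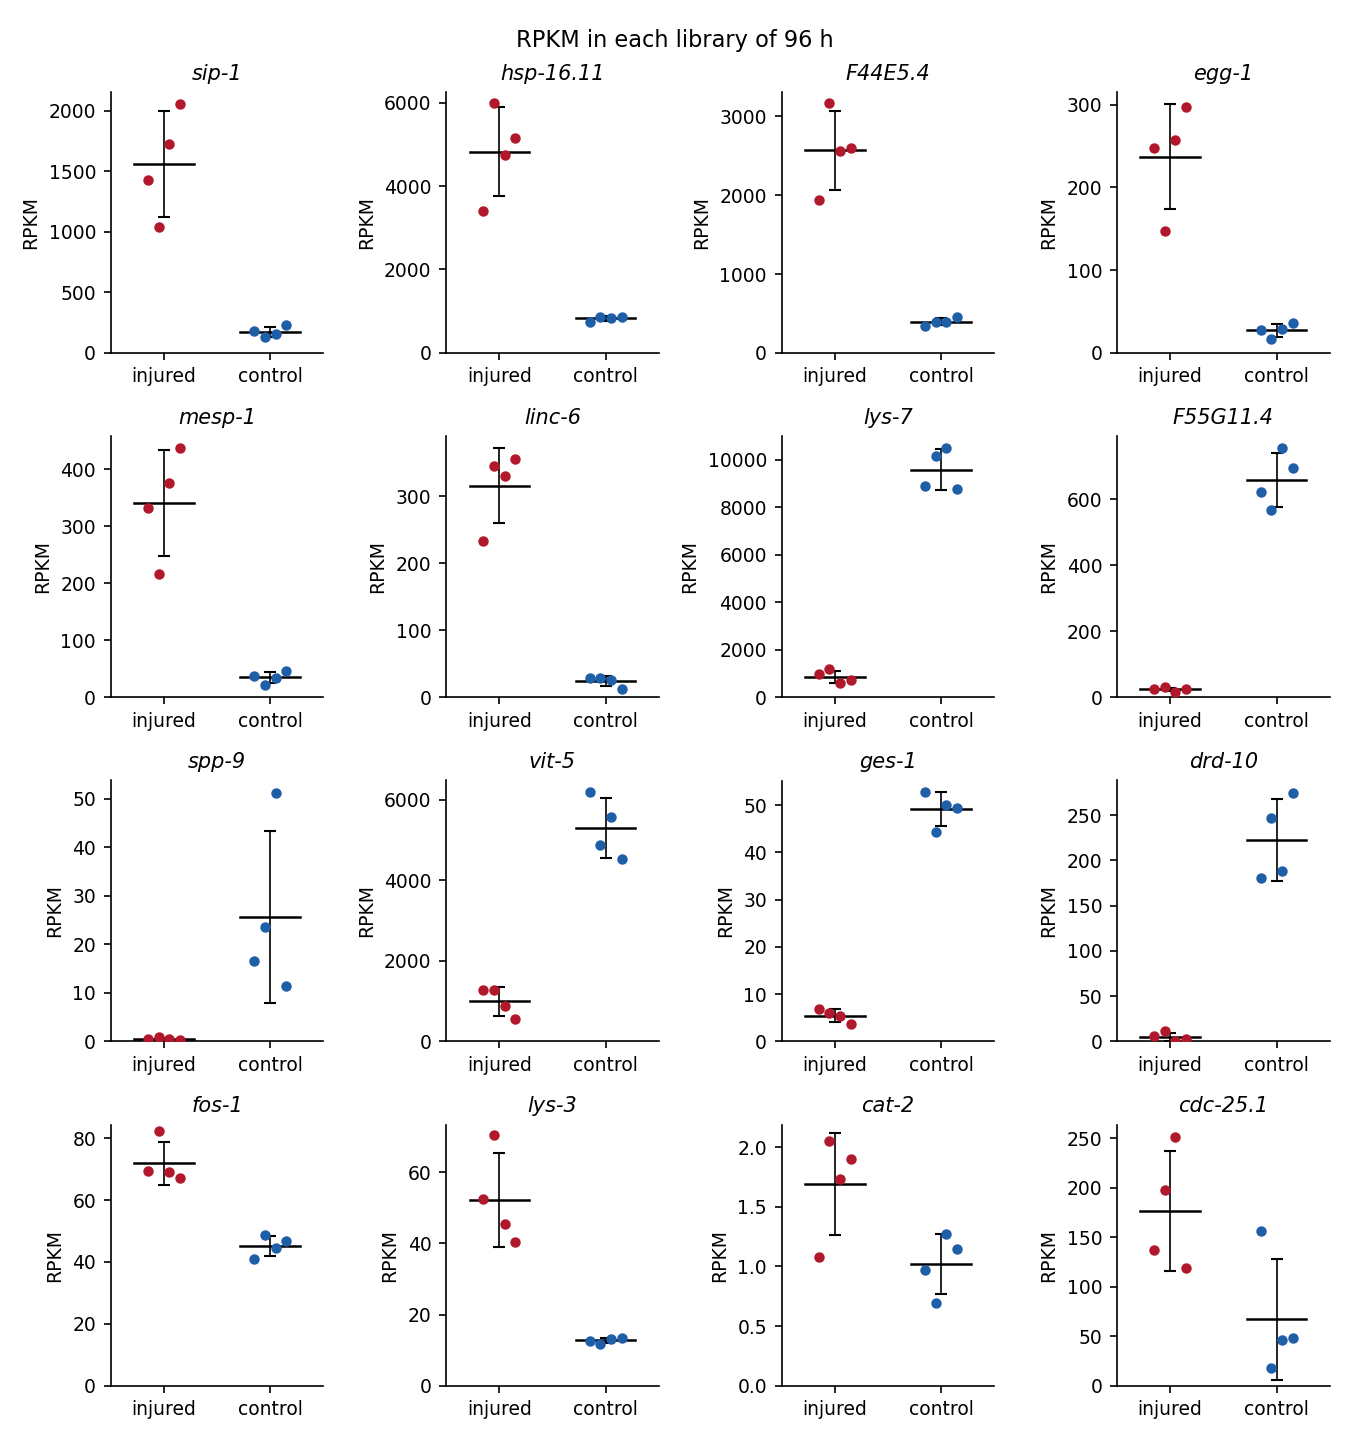
RPKM (vertical, from 0) of 16 genes in each injured library (red, left) and each control library (blue, right), with the mean and the SD of the 4 libraries as a line and bars. Injured and control libraries are apart in 14 of the panels, and they overlap for cat-2 and for cdc-25.1, where control library 1 is high.

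fos-1 and lys-3 were higher 96 h after injury. fos-1 (chromosome V, bases 6003601 to 6016087, plus strand) had 69.3, 82.3, 68.9 and 67.1 RPKM in injured libraries, against 40.9, 48.6, 44.6 and 46.8 RPKM in control libraries, with a log2 difference of 0.66 ± 0.10 (SE) and an adjusted p of 9.26e-05 in limma. lys-3, which encodes a lysozyme, had 52.4, 70.4, 45.5 and 40.4 RPKM in injured and 12.7, 11.8, 13.1 and 13.3 RPKM in control libraries, with a log2 difference of 1.97 ± 0.16 (SE) and an adjusted p of 1.77e-06. vhp-1 (chromosome II, bases 5323276 to 5340829, plus strand) had 209.6, 236, 193 and 204 RPKM in injured and 138, 154, 145 and 165 RPKM in control libraries. The groups did not overlap for any of these 3 genes, as for 69.7% of all genes. The log2 difference of vhp-1 was 0.48, with an adjusted p of 0.000543 in limma. That adjusted p was 0.0571 when all 24 libraries shared 1 estimate of the spread. cat-2, which encodes the enzyme that begins dopamine synthesis, had 1.08, 2.05, 1.73 and 1.90 RPKM in injured and 0.97, 0.69, 1.27 and 1.15 RPKM in control libraries. Its groups overlapped, and its adjusted p of 0.0434 for a log2 difference of 0.52 lost the call under 10 of the 16 alternatives that gave it a value, with adjusted p-values up to 0.123. With the filter of 5 RPKM it was not tested.

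Around fos-1 and vhp-1, the genes of MAP kinase and AP-1 signalling moved in both directions. Of 31 tested members, 15 (48.4%) were higher and 8 (25.8%) lower, and their median log2 difference was 0.28. These shares were not far from the 41.2% higher and 34.0% lower of all genes. The kinase gene mek-1 (0.96), the ERK gene mpk-1 (0.79) and lip-1 (1.29), a phosphatase gene that acts on ERK in the germline, were among the higher ones. The upstream kinase genes mlk-1 (-0.84) and nsy-1 (-0.90), which feed the JNK-like and p38 kinases, and the ubiquitin ligase gene rpm-1 (-0.96), which holds back the DLK-1 kinase in neurons, were lower. The JNK-like kinase gene kgb-1, a target of VHP-1, had 43.8 ± 6.64 RPKM in injured and 56.7 ± 1.83 RPKM in control worms (-0.38, adjusted p 0.00882). The p38 gene pmk-1 had 30.3 ± 3.26 RPKM in injured and 28.9 ± 3.68 RPKM in control worms and was not called (adjusted p 0.642).

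Transcripts of the germline and the oocyte, sperm genes apart, were higher in injured worms almost without exception. Of 44 tested oocyte, eggshell and fertilization genes, 41 were higher and 3 lower, with a median log2 difference of 2.20, against 0.10 for all genes. Regulators of maternal mRNA stood at the top. puf-3 had 236, 162, 255 and 306 RPKM in injured libraries, against 29.8, 18.0, 28.5 and 36.8 RPKM in control libraries (3.07 on the log2 scale), and the related puf-11 had 220 ± 58.6 RPKM in injured and 25.2 ± 5.51 RPKM in control worms. The groups lay far apart for both genes, with injured library 2 the lowest of its group. The zinc finger gene oma-1, needed for oocyte maturation, had 134, 95.9, 136 and 159.9 RPKM in injured and 28.5, 20.2, 29.2 and 41.4 RPKM in control libraries (2.14). rme-2, the yolk receptor gene, had 218, 136, 224 and 265 RPKM in injured and 35.1, 22.7, 33.3 and 49.9 RPKM in control libraries (2.58). The Y-box RNA binding genes cey-2 and cey-3 both had a log2 difference of 2.72.

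The 3 oocyte and eggshell members that fell were perm-4, perm-2 and cav-1. perm-4, an eggshell gene, had 1540.0, 2030.2, 1401 and 983 RPKM in injured libraries and 7074, 7223, 6694 and 6703 RPKM in control libraries, a log2 difference of -2.26. perm-2 had 1281 ± 391 RPKM in injured and 5494 ± 212 RPKM in control worms, and cav-1, a caveolin gene, had 52.5 ± 10.5 RPKM in injured and 194 ± 42.0 RPKM in control worms. With perm-4 and perm-2 as its most abundant members, the summed RPKM of the whole list was 8738 to 10978 in injured libraries and 13637 to 14188 in control libraries, while 41 of 44 members were higher in injured worms.

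The machinery of meiosis, DNA replication and the cell cycle shared this direction. Of 35 tested meiotic chromosome genes, 34 were higher and 0 lower, with a median log2 difference of 1.64. him-3, an axis component of paired chromosomes, had 61.1, 45.0, 57.8 and 67.9 RPKM in injured and 11.4, 8.35, 9.02 and 13.0 RPKM in control libraries. The synaptonemal complex genes syp-3 (2.11) and Y54E10A.12, now syp-5 (2.18), the pairing center gene zim-3 (2.07) and the crossover gene cosa-1 (2.07) were higher as well. Of 40 DNA replication genes, 39 were higher and 0 lower (median 1.47). The kinase gene cdc-7, which fires replication origins, had 46.5 ± 10.3 RPKM in injured and 8.74 ± 2.27 RPKM in control worms, and the GINS complex genes psf-1 (2.04) and psf-3 (2.00) followed it.

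Of 44 cell cycle regulators, 40 were higher and 2 lower (median 1.33). The mitotic cyclin gene cyb-2.2 had 187 ± 46.2 RPKM in injured and 33.1 ± 7.42 RPKM in control worms, and the centromeric histone gene hcp-3 had 140 ± 34.4 RPKM in injured and 34.9 ± 7.16 RPKM in control worms. The exceptions were cyd-1, the cyclin D gene, with 5.86, 5.06, 5.74 and 4.75 RPKM in injured and 17.4, 14.8, 16.3 and 22.7 RPKM in control libraries (-1.63), and cdc-25.2 (-0.53). Of 38 genes of P granules, germline maintenance and small RNA pathways, 36 were higher and 0 lower (median 1.46). The Argonaute genes wago-1 (153, 90.1, 153 and 169.8 RPKM in injured and 22.1, 14.04, 18.9 and 26.0 RPKM in control libraries) and hrde-1 (120 ± 23.9 RPKM in injured and 23.4 ± 3.45 RPKM in control worms), which carry small RNA silencing in germ cells, had log2 differences of 2.77 and 2.32.

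The defining markers of the germline and oocytes are not independent of these lists, since oma-1 and rme-2 were given with the oocyte genes above. All 5 of them (glh-1, pgl-1, oma-1, oma-2 and rme-2) were higher, and their summed RPKM was 501 to 860 in injured libraries, against 129 to 224 in control libraries. glh-1, a P granule helicase gene, had the smallest difference, with 88.0, 82.1, 86.5 and 93.5 RPKM in injured and 56.4, 50.6, 52.9 and 58.4 RPKM in control libraries (0.68). In bulk libraries of whole worms a larger number of germ cells and more of these transcripts per cell cannot be told apart, and likewise fewer cells of a type and less RNA per cell. Sperm markers were near the floor of detection, at a sum of 0.91 to 2.27 RPKM in injured and 3.36 to 4.46 RPKM in control libraries, with spe-11 lower (-1.04) and msp-142, gsp-3 and spe-9 below the filter. The longer list of sperm and spermatogenesis genes was divided, with 6 higher and 6 lower of 20 tested (median -0.20) and 73 below the filter. Early embryo markers summed to 1.98 to 3.65 RPKM in injured and 1.63 to 2.88 RPKM in control libraries, with end-3 higher (0.81) and the other 4 genes below the filter. The longer list of early embryo lineage genes went the other way, with 11 lower and 3 higher of 20 tested. Its median log2 difference was -0.49, and -0.60 after median-of-ratios scaling. The part of changed germline content in the gene lists was not tested.

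**Figure D3:**
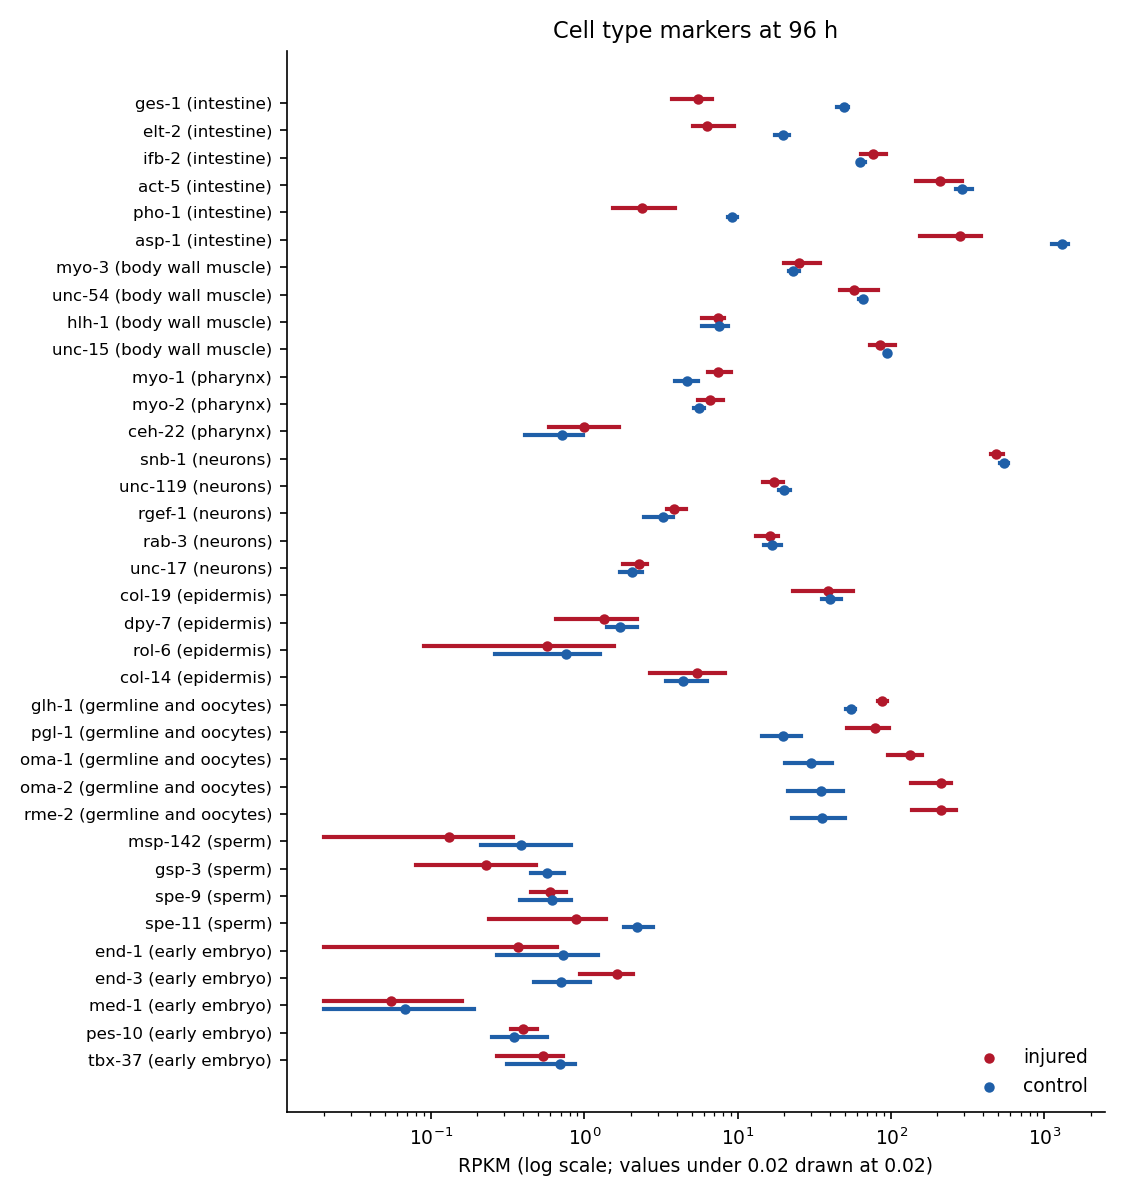
RPKM (horizontal, log scale) of the markers of each tissue in injured worms (red, upper) and control worms (blue, lower), with dots for the mean and bars for the lowest and highest of the 4 libraries. Means of the intestinal markers other than ifb-2 lie lower in injured worms, with act-5 overlapping, germline and oocyte markers lie higher without overlap, and those of body wall muscle, neurons and epidermis overlap.

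Genes for making proteins were higher as a block. Of 79 tested cytosolic ribosomal protein genes, 78 were higher and 0 lower, and rpl-25.1 was not called, with a median log2 difference of 1.02. rpl-14 had 2639.6, 2766, 2849 and 2944 RPKM in injured libraries and 1182, 1264, 1221 and 1138 RPKM in control libraries, and its spread within each group was small beside the difference between them. The largest of these differences was that of rpl-11.1, with 1669, 1345, 1899.6 and 2015 RPKM in injured and 429.6, 453, 436 and 446 RPKM in control libraries (1.96), whereas its paralog rpl-11.2 had 1314 ± 169 RPKM in injured and 1040 ± 88.3 RPKM in control worms (0.33). Of 33 aminoacyl-tRNA synthetase genes, which charge tRNAs, 32 were higher and 1, cars-2 (-0.99), lower (median 0.90), with nars-1 at 188 ± 6.53 RPKM in injured and 74.2 ± 5.30 RPKM in control worms. Of 31 nucleolar and ribosome assembly genes, 30 were higher and 1, the rRNA synthesis repressor gene ncl-1 (-0.30), lower (median 0.76), among them rpac-19, a subunit gene of RNA polymerases I and III (1.46).

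Splicing and protein breakdown followed with smaller differences. Of 48 spliceosome genes, 44 were higher and 0 lower (median 0.74), with the Sm protein gene snr-1 at 206 ± 26.5 RPKM in injured and 91.8 ± 5.45 RPKM in control worms. All 33 proteasome subunit genes were higher (median 0.67). pas-5, a subunit of the catalytic core, had 256, 213, 261 and 282 RPKM in injured libraries and 117, 114.99, 123 and 118.52 RPKM in control libraries, and the groups did not overlap. The paralog rpn-6.2 of the lid subunit gene rpn-6.1 had the largest difference (2.07) at a low level of 14.8 ± 3.35 RPKM in injured and 3.08 ± 0.361 RPKM in control worms. rpn-6.1 itself had 103 ± 11.2 RPKM in injured and 70.0 ± 4.44 RPKM in control worms (0.56).

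**Figure D4:**
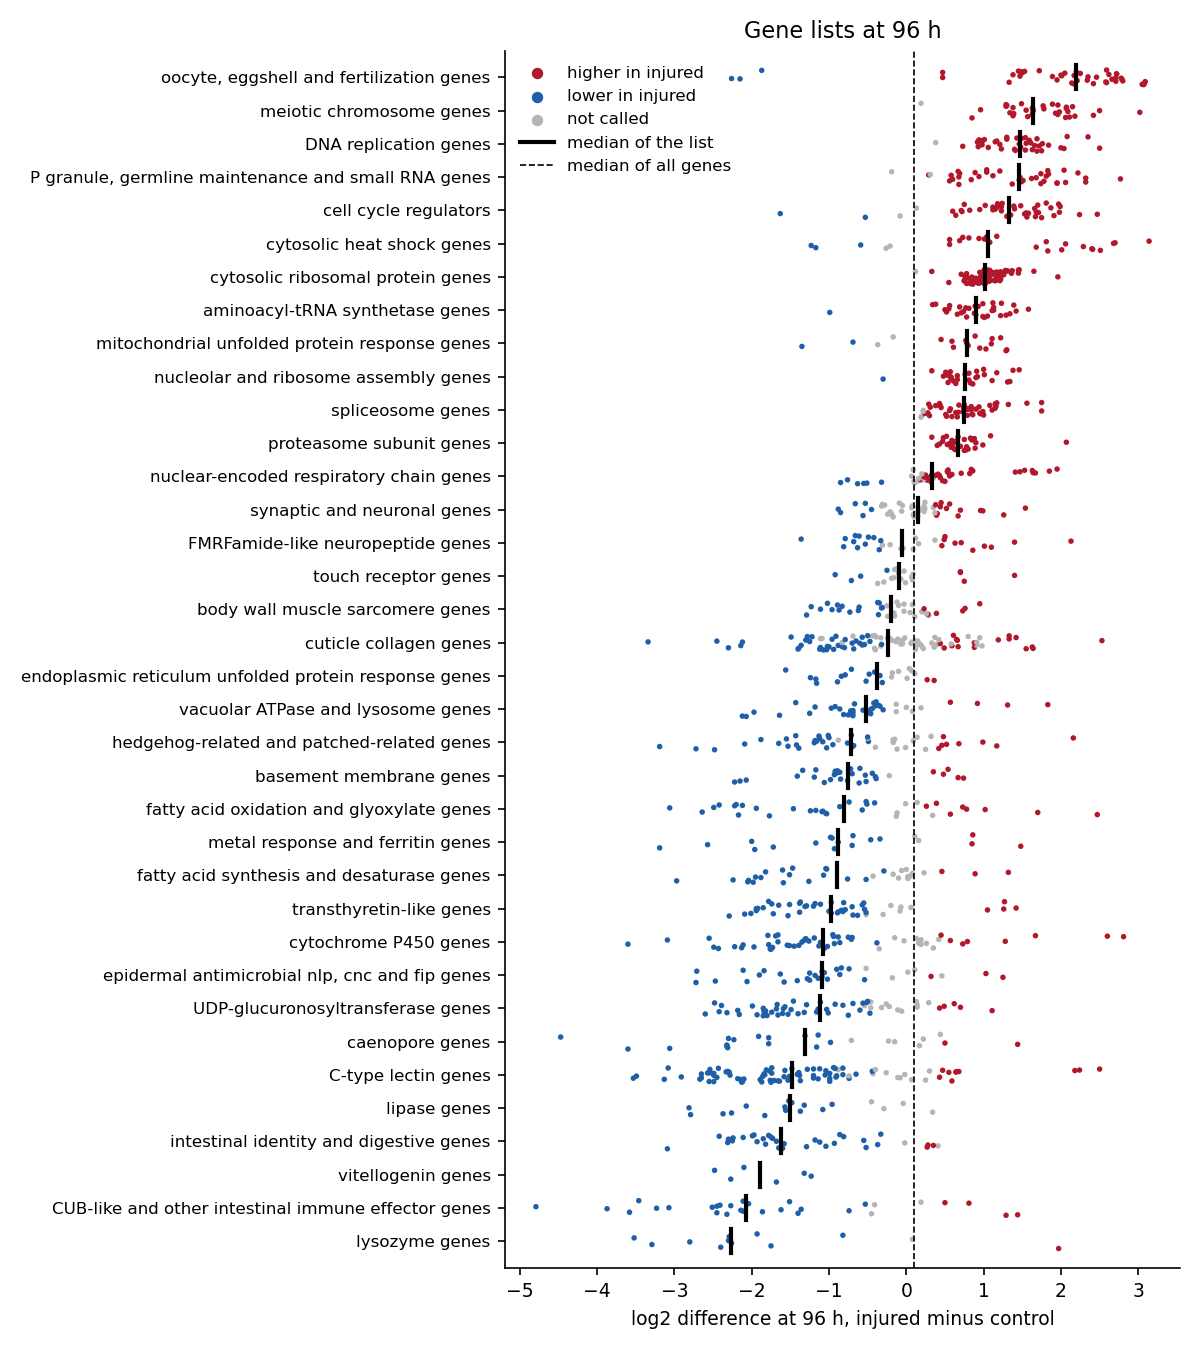
Log2 difference between injured and control worms (horizontal) for the tested members of 36 gene lists (rows), with a dot for each gene in red (higher), blue (lower) or grey (not called), a bar at the median of the list and a dashed line at the median of all genes, 0.10. Lists of the germline and of protein synthesis lie to the right, with medians up to 2.20, and lists of the intestine and of secreted defence proteins to the left, with medians down to -2.27.

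Cytosolic chaperone genes were higher at 96 h, while those of the endoplasmic reticulum were lower. Of 28 tested heat shock genes, 23 were higher and 3 lower, with a median log2 difference of 1.06. The inducible small heat shock genes hsp-16.48 and hsp-16.49, near-identical copies whose reads could be shared, had 2620 ± 712 and 2614 ± 699 RPKM in injured worms and 477 ± 39.4 and 480 ± 41.8 RPKM in control worms. hsp-16.11 has such a copy too, hsp-16.1, which was listed near 0. The HSP70 family gene F44E5.4, a near-copy of F44E5.5, had 1946, 3168, 2564 and 2593 RPKM in injured and 347, 387, 398 and 450.4 RPKM in control libraries (2.68). hsp-12.6, a small heat shock gene under DAF-16, had 94.6, 82.5, 92.9 and 70.5 RPKM in injured and 15.8, 16.0, 15.4 and 20.9 RPKM in control libraries (2.29). The groups did not overlap for any of them, as for 69.7% of all genes. The heat shock factor gene hsf-1 had 56.2 ± 3.20 RPKM in injured and 31.8 ± 2.27 RPKM in control worms (0.81). The 3 members that fell were hsp-12.2 (-1.17), hsp-25 (-1.23) and hsp-43 (-0.59).

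Of 18 genes of the mitochondrial unfolded protein response, 14 were higher and 2, dve-1 (-1.35) and gpd-2 (-0.69), lower (median 0.79). The mitochondrial chaperone gene hsp-6 had 230.1, 259.6, 272 and 252 RPKM in injured libraries, against 104, 99.0, 100.3 and 109.6 RPKM in control libraries (1.29). hsp-60, the chaperonin gene, had 112 ± 18.2 RPKM in injured and 44.6 ± 4.06 RPKM in control worms (1.30). atfs-1, the transcription factor gene of this response, had a log2 difference of 0.95. Of 22 genes of the endoplasmic reticulum response, 2, cnx-1 (0.36) and pdi-1 (0.27), were higher and 13 lower (median -0.38). The BiP gene hsp-3 had 223, 274, 223 and 187 RPKM in injured and 533, 468, 484 and 527 RPKM in control libraries (-1.16), and pdi-6, a disulfide isomerase gene, had 137 ± 20.4 RPKM in injured and 323 ± 11.8 RPKM in control worms (-1.24). xbp-1, the transcription factor gene of that response, was lower too (-0.48). Of 28 redox genes, 10 were higher and 10 lower (35.7% each), near the 41.2% higher and 34.0% lower of all genes. After median-of-ratios scaling 8 were higher and 12 lower. The mitochondrial superoxide dismutase gene sod-2 was higher (1.17) and its counterpart sod-3, a classic DAF-16 target, was lower (-1.87).

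Yolk protein transcripts were lower in injured worms for all 6 vitellogenin genes. vit-5 had 1269.9, 1282, 878 and 545 RPKM in injured libraries, against 6197, 4866, 5574 and 4532 RPKM in control libraries, with a log2 difference of -2.48 ± 0.24 (SE) and an adjusted p of 4.16e-06 in limma. vit-2 had 1171 ± 397 RPKM in injured and 5397 ± 607 RPKM in control worms (-2.27), and vit-6, the most divergent member, had 1084 ± 362 RPKM in injured and 4468 ± 848 RPKM in control worms (-2.10). Injured library 4 was the lowest in all 3 genes, and no injured library reached a control library. vit-1 (-1.68), vit-3 (-1.23) and vit-4 (-1.32) differed less, and since vit-3, vit-4 and vit-5 are near-identical their separate values depend on how shared reads were assigned. The lipid transfer gene dsc-4, needed to load yolk particles, had 5.19 ± 1.87 RPKM in injured and 29.8 ± 2.89 RPKM in control worms (-2.46), and the homeodomain gene ceh-60, which acts on vitellogenin transcription, had 4.59 ± 1.50 RPKM in injured and 17.2 ± 0.724 RPKM in control worms (-1.84). Yolk genes and the yolk receptor gene rme-2 thus lay on opposite sides of 0.

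Other transcripts of the intestine fell with the yolk genes. Of 36 tested intestinal identity and digestive genes, 31 were lower and 3 higher, with a median log2 difference of -1.62. Genes were taken off this list after values were seen, and these counts leave them out. The gut esterase gene ges-1 had 6.81, 5.95, 5.36 and 3.70 RPKM in injured libraries, against 52.7, 44.3, 50.0 and 49.5 RPKM in control libraries (-3.09). The aspartic protease gene asp-6 had 477 ± 117 RPKM in injured and 2009 ± 96.9 RPKM in control worms, and the cathepsin B gene cpr-6 had 193 ± 65.2 RPKM in injured and 882 ± 69.8 RPKM in control worms. elt-2, the GATA factor gene that maintains intestinal identity, had 5.23, 9.46, 5.52 and 5.11 RPKM in injured and 21.7, 18.6, 20.5 and 17.6 RPKM in control libraries (-1.60). The 3 higher members were the structural genes ifb-2 (0.27), ifo-1 (0.35) and erm-1 (0.28), and none of the 3 calls held after median-of-ratios scaling. Without control library 2 or without control library 3, 1 member was higher. The 6 intestinal markers summed to 374 to 788 RPKM in injured libraries and 1524 to 1902 RPKM in control libraries, with 5 lower and ifb-2 higher. The brush border actin gene act-5 had 205, 290.3, 192 and 146 RPKM in injured and 336, 281, 282 and 266 RPKM in control libraries, which overlapped, and its call (adjusted p 0.0171) was lost under 2 of 17 alternatives. The part of intestinal RNA content in the lists that follow was not tested.

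Lysosomal and lipid genes were mostly lower too. Of 38 vacuolar ATPase and lysosome genes, 29 were lower and 4 higher (median -0.52). The glucocerebrosidase gene gba-1 had 8.03 ± 1.67 RPKM in injured and 36.2 ± 3.68 RPKM in control worms, and vha-6, the intestinal proton pump subunit gene, had 30.5 ± 9.68 RPKM in injured and 117 ± 6.66 RPKM in control worms. The 4 higher ones were cup-5 (1.31), a lysosomal channel gene, laat-1 (0.57), an amino acid transporter gene, and the pump subunit genes vha-18 (1.83) and vha-7 (0.92). Of 18 lipase genes, 14 were lower and 0 higher (median -1.50), with lipl-1 at 9.24 ± 2.69 RPKM in injured and 64.9 ± 7.28 RPKM in control worms.

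Of 32 genes of fatty acid synthesis and desaturation, 19 were lower and 3, acl-2 (1.32), acly-2 (0.89) and lpin-1 (0.46), higher (median -0.89). fat-5 and fat-6 encode desaturases that make monounsaturated fatty acids. fat-5 had 73.9, 78.9, 53.0 and 42.6 RPKM in injured libraries, against 465, 422, 490.5 and 526 RPKM in control libraries (-2.97), and fat-6 had 308 ± 68.9 RPKM in injured and 1241 ± 72.2 RPKM in control worms (-2.04). Neither pair of groups overlapped, as for 69.7% of all genes. The fatty acid synthase gene fasn-1 was not called, at 79.2 ± 8.97 RPKM in injured and 75.4 ± 3.26 RPKM in control worms (adjusted p 0.56). Of 36 genes of fatty acid oxidation and the glyoxylate cycle, 23 were lower and 8 higher (median -0.80). icl-1, the glyoxylate enzyme gene, had 67.5 ± 19.5 RPKM in injured and 302 ± 17.1 RPKM in control worms, and ech-9 fell by 3.06 on the log2 scale. acdh-1, a branched-chain acyl-CoA dehydrogenase gene known as a diet sensor, went the other way, with 9.68, 14.3, 7.91 and 7.28 RPKM in injured and 1.19, 0.98, 0.54 and 3.53 RPKM in control libraries (2.47).

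Lysozyme genes and intestinal defence effectors had the lowest medians of all lists. Of 12 tested lysozyme genes, 10 were lower and lys-3 alone was higher, with a median log2 difference of -2.27. Beside lys-7, lys-4 had 23.0, 21.6, 25.9 and 12.6 RPKM in injured and 211, 271, 166 and 174 RPKM in control libraries (-3.29), and lys-8 had 57.2 ± 20.2 RPKM in injured and 383 ± 51.9 RPKM in control worms (-2.80). The invertebrate-type lysozyme gene ilys-3 had 16.4 ± 5.34 RPKM in injured and 79.7 ± 7.48 RPKM in control worms (-2.30). Of 30 CUB-like and other intestinal effector genes, 23 were lower and 4 higher (median -2.07). The higher ones were the infection response genes irg-1 (1.29) and irg-2 (1.44) and the transcription factor genes zip-2 (0.50) and hsf-1. The thaumatin-like gene thn-2 had 88.2, 96.1, 48.3 and 43.7 RPKM in injured and 727, 684, 773 and 709 RPKM in control libraries.

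Of 91 C-type lectin genes, which encode secreted carbohydrate-binding proteins, 70 were lower and 10 higher (median -1.48). clec-41 had 59.6 ± 18.8 RPKM in injured and 365 ± 40.7 RPKM in control worms. The 3 largest rises of that family were clec-87 (2.50), clec-88 (2.24) and clec-91 (2.18), and the other 7 were at most 0.68. Of 23 caenopore genes, whose small products open pores in bacterial membranes, 15 were lower and 2, spp-20 (1.44) and R74.10 (0.50), higher (median -1.31). spp-1 had 35.8, 49.3, 30.7 and 28.4 RPKM in injured and 293, 336, 305 and 262 RPKM in control libraries (-3.06), and spp-5 had 596 ± 203 RPKM in injured and 2884 ± 477 RPKM in control worms (-2.32). Antimicrobial peptide genes of the epidermis were lower as well, 24 of 32, with cnc-11 (1.25), nlp-24 (1.03) and fipr-21 (0.32) higher (median -1.09). nlp-29, a peptide gene induced by skin wounding and fungal infection, had 34.1, 85.4, 56.8 and 57.5 RPKM in injured and 151, 125, 124 and 111 RPKM in control libraries (-1.18), and fip-6 had 11.3 ± 2.43 RPKM in injured and 36.0 ± 6.99 RPKM in control worms (-1.63).

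Detoxification families were mostly lower. Of 58 cytochrome P450 genes, 40 were lower and 8 higher (median -1.08), with cyp-35B1, a longevity pathway target, at 10.6, 17.4, 15.8 and 7.79 RPKM in injured and 124, 83.7, 114 and 116 RPKM in control libraries. The clearest rises in the family were those of cyp-31A2 and cyp-31A5, of which cyp-31A2 is known to act with cyp-31A3 (1.67) in eggshell lipid production, with log2 differences of 2.60 and 2.81 and 70.6 ± 17.7 RPKM for cyp-31A2 in injured and 11.1 ± 1.98 RPKM in control worms. These copies are alike in sequence and may share reads. Of 58 tested members of the UDP-glucuronosyltransferase family, 41 were lower and 5 higher, ugt-24 (1.11) the most among ugt-18, ugt-24, ugt-26, ugt-28 and ugt-48 (median -1.12), with ugt-41 at 23.2 ± 8.13 RPKM in injured and 121 ± 11.3 RPKM in control worms. Glutathione transferase genes were less uniform, with 19 (50.0%) lower and 9 (23.7%) higher of 38, against 34.0% and 41.2% of all genes. gst-4, the usual reporter of SKN-1 activity, had 8.74 ± 2.09 RPKM in injured and 33.5 ± 2.49 RPKM in control worms (-1.90), and gst-1 had 383 ± 24.7 RPKM in injured and 145 ± 6.86 RPKM in control worms (1.39).

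Of 19 metal response and ferritin genes, 14 were lower and 3, numr-1, cdr-4 (0.85) and the phytochelatin synthase gene pcs-1 (0.86), higher (median -0.88). The ferritin gene ftn-1, an iron store of the intestine, had 16.4, 25.3, 9.26 and 8.07 RPKM in injured and 116, 113, 151 and 125 RPKM in control libraries (-3.19), and the metallothionein gene mtl-1 had 122 ± 25.6 RPKM in injured and 472 ± 39.9 RPKM in control worms (-1.96). numr-1, which responds to heavy metals and disturbed RNA processing, was higher, with 385, 429.5, 443 and 386 RPKM in injured and 131, 157, 160.5 and 139.9 RPKM in control libraries (1.48). Of 47 transthyretin-like genes, which encode small secreted proteins, 37 were lower and 4, ttr-21, ttr-31, ttr-38 and ttr-53, higher (median -0.97), with ttr-51 at 2805 ± 842 RPKM in injured and 8542 ± 672 RPKM in control worms.

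In energy metabolism, paralogs of the same enzyme differed from each other. These pairs were singled out after their values were seen. Of 50 nuclear-encoded respiratory chain genes, 34 were higher and 6 lower (median 0.33). The ATP synthase subunit gene asb-1, known to act in the germline, had 150 ± 31.8 RPKM in injured and 50.7 ± 4.77 RPKM in control worms, and its paralog asb-2 had 99.4 ± 18.0 RPKM in injured and 167 ± 3.20 RPKM in control worms. The succinate dehydrogenase gene sdha-2 had a log2 difference of 1.47 and sdha-1 of -0.63. Among the glyceraldehyde-3-phosphate dehydrogenase genes, gpd-1 and gpd-4 had log2 differences of 2.46 and 2.25, against -0.69 for gpd-2 and -0.47 for gpd-3. The first of each pair rose and the second fell, with adjusted p-values of 6.01e-06 for asb-1, 0.000144 for asb-2, 4.73e-06 for sdha-2 and 0.000135 for sdha-1. Of the 13 features of the mitochondrial genome, 3 were higher (MTCE.7, MTCE.33 and ctc-2) and 5 lower (ctc-1, ctc-3, ctb-1, nduo-1 and nduo-5). These shares were 23.1% and 38.5%, against 41.2% and 34.0% of all genes. Under at most 2 of 17 alternatives the calls of ctc-2, ctb-1 and nduo-5 were lost. The mitochondrial rRNA genes MTCE.7 and MTCE.33 had 1753 ± 170 and 766 ± 98.5 RPKM in injured worms and 698 ± 66.9 and 163 ± 8.05 RPKM in control worms, while ctc-3, a cytochrome c oxidase subunit gene, had 1787 ± 276 RPKM in injured and 3131 ± 246 RPKM in control worms (-0.82).

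Basement membrane genes were mostly lower, and cuticle collagens were divided. Of 31 basement membrane genes, 25 were lower and 5, fbl-1 (0.74), him-4 (0.67), dgn-2, adt-2 and zmp-1, higher (median -0.76). Without any 1 of the 4 control libraries 3 members were higher. The laminin gene lam-1 had 14.99, 17.4, 16.8 and 15.7 RPKM in injured and 66.7, 71.3, 78.8 and 94.8 RPKM in control libraries (-2.22), nid-1, the nidogen gene, had 6.35 ± 1.54 RPKM in injured and 27.7 ± 0.76 RPKM in control worms, and the type IV collagen gene let-2 had 59.2 ± 11.5 RPKM in injured and 123 ± 4.77 RPKM in control worms. Of 95 cuticle collagen genes that passed the filter (84 did not), 36 (37.9%) were lower, 17 (17.9%) higher and 42 not called (median -0.24), against 34.0% lower and 41.2% higher among all genes. col-50 had 0.98, 1.76, 0.88 and 0.90 RPKM in injured and 14.96, 14.6, 18.9 and 14.5 RPKM in control libraries (-3.34). col-139 and col-129 were spread widely within injured worms, at 1.18, 1.52, 22.1 and 9.59 RPKM and at 1.55, 2.54, 26.6 and 7.15 RPKM, and were not called. Markers of the epidermis summed to 26.1 to 66.3 RPKM in injured and 40.8 to 55.9 RPKM in control libraries, and none of the 3 that passed the filter was called. Hedgehog-related and patched-related genes had 27 lower and 8 higher of 47 (median -0.71), with grd-3 at 15.5 ± 4.94 RPKM in injured and 140 ± 11.9 RPKM in control worms and ptr-2 at 76.7 ± 18.2 RPKM in injured and 16.7 ± 3.71 RPKM in control worms.

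Muscle lists held more lower than higher genes, while the markers of body wall muscle and of neurons were not called. Of the pharyngeal markers, myo-1 was higher (0.62), myo-2 was not called and ceh-22 was below the filter. Of 19 pharyngeal muscle and gland genes, 11 (57.9%) were lower and only myo-1 was higher (median -0.64), against 34.0% lower among all genes tested. From this list, too, genes were taken off after values were seen. The pharyngeal troponin I gene tni-4 had 39.6 ± 7.81 RPKM in injured and 72.1 ± 4.43 RPKM in control worms (-0.87), and pha-4, the FoxA factor gene that specifies the pharynx and also acts in the intestine, had 15.5 ± 1.45 RPKM in injured and 30.9 ± 2.96 RPKM in control worms (-0.98). Of 28 muscle attachment genes, 16 (57.1%) were lower and 3 higher, the integrin beta gene pat-3 (0.36), unc-98 (1.00) and unc-23 (0.79), with a median of -0.41. None of the 4 body wall muscle markers was called, and their sum was 148 to 230 RPKM in injured and 182 to 193 RPKM in control libraries. Of 36 body wall muscle genes, 16 were lower and 6 higher, a lower share of 44.4%. The troponin I gene unc-27 had 88.9 ± 22.9 RPKM in injured and 213 ± 27.7 RPKM in control worms, and the myosin gene unc-54 had 46.6, 82.0, 52.0 and 47.1 RPKM in injured and 68.3, 65.2, 61.9 and 66.6 RPKM in control libraries and was not called (adjusted p 0.191). None of the 5 neuronal markers was called, with sums of 483 to 577 RPKM in injured and 548 to 619 RPKM in control libraries. Of 44 synaptic and neuronal genes, 13 (29.5%) were higher, 6 (13.6%) lower and 25 not called (median 0.15). Both shares lay below the 41.2% higher and 34.0% lower of all genes. After median-of-ratios scaling 10 were higher and 11 lower (median 0.04). ida-1, a dense core vesicle gene, had 92.6, 112, 91.2 and 94.6 RPKM in injured and 32.1, 38.1, 29.9 and 33.3 RPKM in control libraries (1.54), and unc-31, needed for the release of such vesicles, had 9.71 ± 0.683 RPKM in injured and 3.78 ± 0.377 RPKM in control worms (1.26).

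Neuropeptide genes moved both ways. Of 30 FMRFamide-like genes, 10 (33.3%) were higher and 12 (40.0%) lower, against 41.2% and 34.0% of all genes. flp-33 had 47.1, 50.6, 65.3 and 55.1 RPKM in injured and 12.2, 16.2, 9.71 and 10.5 RPKM in control libraries (2.13), and flp-6 had 134, 90.6, 112 and 87.8 RPKM in injured and 262, 256, 284 and 275 RPKM in control libraries (-1.36). Neither pair of groups overlapped, as for 69.7% of all genes. Of 70 neuropeptide-like genes, 18 (25.7%) were higher and 20 (28.6%) lower. Among them, nlp-2 had 23.7 ± 2.21 RPKM in injured and 4.57 ± 1.95 RPKM in control worms. nlp-40, which the intestine releases to time defecation, had 210 ± 40.7 RPKM in injured and 632 ± 42.9 RPKM in control worms. Of 28 insulin-like genes, 7 (25.0%) were higher and 10 (35.7%) lower. ins-7, an agonist made in the intestine among other cells, had 34.5 ± 11.9 RPKM in injured and 104 ± 13.1 RPKM in control worms.

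Of 20 genes on a list of dopamine synthesis, transport, breakdown and receptor genes, 12 were lower and 4 higher (median -0.67), although several of them act in other tissues too. The higher ones were cat-2, the receptor genes dop-4 (0.83) and dop-6 (0.50) and tba-1 (0.27), a tubulin gene used in many cells. After median-of-ratios scaling 12 were lower and 1 higher. Without control library 1 or 2 or injured library 3, 1 member was higher, and without control library 4 or injured library 4, 2 were. bas-1, the decarboxylase gene shared by dopamine and serotonin neurons, had 3.61, 6.95, 4.75 and 3.93 RPKM in injured and 17.4, 16.6, 19.1 and 16.4 RPKM in control libraries (-1.79). cat-4, which makes the biopterin cofactor and is also expressed in the epidermis, had 39.9, 51.3, 37.3 and 30.7 RPKM in injured and 110.2, 125, 129 and 100.2 RPKM in control libraries (-1.55). The vesicular transporter gene cat-1 had 1.28 ± 0.176 RPKM in injured and 2.26 ± 0.274 RPKM in control worms (-0.63), and the monoamine oxidase-like gene amx-3 had 1.30 ± 0.313 RPKM in injured and 6.34 ± 0.563 RPKM in control worms (-1.94). The dopamine transporter gene dat-1 and the mechanosensory channel gene trp-4, which mark dopamine neurons most closely, did not pass the filter. Touch receptor genes had 4 higher (mec-4, mec-15, ocr-2 and tmc-1) and 4 lower (mec-5, mec-12, mec-17 and pezo-1) of 21, with the channel gene mec-4 at 0.75 and the tubulin acetyltransferase gene mec-17 at -0.92. The median of the touch receptor genes, -0.10, turned to 0.11 under quantile normalization.

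Regulatory families were divided within themselves. Of 184 nuclear hormone receptor genes that passed the filter (100 did not), 88 (47.8%) were lower and 29 (15.8%) higher (median -0.31), against 34.0% and 41.2% of all genes. nhr-17 had 49.6, 65.4, 54.8 and 49.9 RPKM in injured and 10.7, 10.99, 12.4 and 12.5 RPKM in control libraries (2.18), and nhr-176 had 3.19 ± 0.965 RPKM in injured and 13.9 ± 0.546 RPKM in control worms. Of 224 F-box genes that passed it (167 did not), 107 (47.8%) were lower and 66 (29.5%) higher. Their median of -0.31 was 0.04 among members reaching 5 RPKM in at least 4 libraries. fbxa-165 had 2.16 ± 0.198 RPKM in injured and 15.7 ± 1.59 RPKM in control worms, and fbxa-140 had 30.8 ± 1.33 RPKM in injured and 9.23 ± 0.463 RPKM in control worms. Of 55 histone genes, 22 (40.0%) were higher and 13 (23.6%) lower, against 41.2% and 34.0% of all genes. his-72, an H3.3 gene with polyadenylated transcripts, had 1098 ± 127 RPKM in injured and 468 ± 55.1 RPKM in control worms (1.23). Most other histone transcripts lack a poly(A) tail, so that their values in these libraries stand for the fraction captured.

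The direction of change was not even along the genome. On chromosome X, 16.5% of 1982 tested genes were higher and 51.4% lower, with a median log2 difference of -0.41. On chromosomes I and III, 1175 of 2152 and 1169 of 2166 genes were higher, with medians of 0.43 and 0.41. Chromosomes II (44.7%) and IV (42.2%) lay near the 41.2% of all genes, and chromosome V below them (35.0% higher and 39.6% lower). Genes with a mean of 20 to 100 RPKM were higher in 60.3% of cases, against 18.4% of genes below 5 RPKM.

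The effect of injury at 96 h was set against that at the earlier times by the difference of the differences over all 24 libraries. Against 8 h, 6207 of 13781 genes (45.0%) differed, 3359 (24.4%) with a more positive and 2848 (20.7%) with a more negative difference at 96 h. After median-of-ratios scaling 8440 genes (61.2%) differed, 4215 (30.6%) and 4225 (30.7%) in these directions. Antimicrobial peptide genes led the negative differences. fipr-24 had a log2 difference of -2.47 at 96 h, against 4.48 at 8 h, when it averaged 90.4 RPKM in injured and 3.11 RPKM in control worms. The whole epidermal peptide list had a median of 0.76 at 8 h, -0.01 at 48 h and -1.09 at 96 h, and after median-of-ratios scaling 0.81, -0.51 and -1.20. fipr-22 (-6.03), fipr-23 (-5.99), C46G7.1 (-6.69) and C50F7.5 (-6.07) had the other most negative differences between 96 and 8 h. C46G7.1 was widely spread at 8 h, with 15.5, 0.0, 17.29 and 2.7 RPKM in injured libraries and 0.0 RPKM in every control library. Among the most positive, C27H5.6 was at 0.11 RPKM in injured and 0.0875 RPKM in control worms at 8 h, and acdh-1 was at 107 RPKM in injured and 307 RPKM in control worms. col-80 (3.44), B0281.4 (3.43) and F13E9.19 (3.89) were the remaining ones.

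Oocyte and replication genes had medians near or below 0 at 8 h. The oocyte and eggshell list had a median of 0.06 at 8 h, 1.94 at 48 h and 2.20 at 96 h, and 39 of its 44 genes had a more positive difference at 96 h than at 8 h. DNA replication genes had medians of -0.23, 1.35 and 1.47 at these times. Lysozyme genes had -0.95, -0.94 and -2.27, and vitellogenin genes -1.04, -1.78 and -1.89. All genes together had medians of -0.01, 0.52 and 0.10. After median-of-ratios scaling the medians at 8, 48 and 96 h were 0.11, 1.39 and 2.09 for oocyte and eggshell genes and -0.17, 0.80 and 1.36 for DNA replication genes. They were -0.91, -1.35 and -2.36 for lysozyme genes and -0.98, -2.34 and -2.0 for vitellogenin genes, whose order at 48 and 96 h turned round with scaling.

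**Figure D5:**
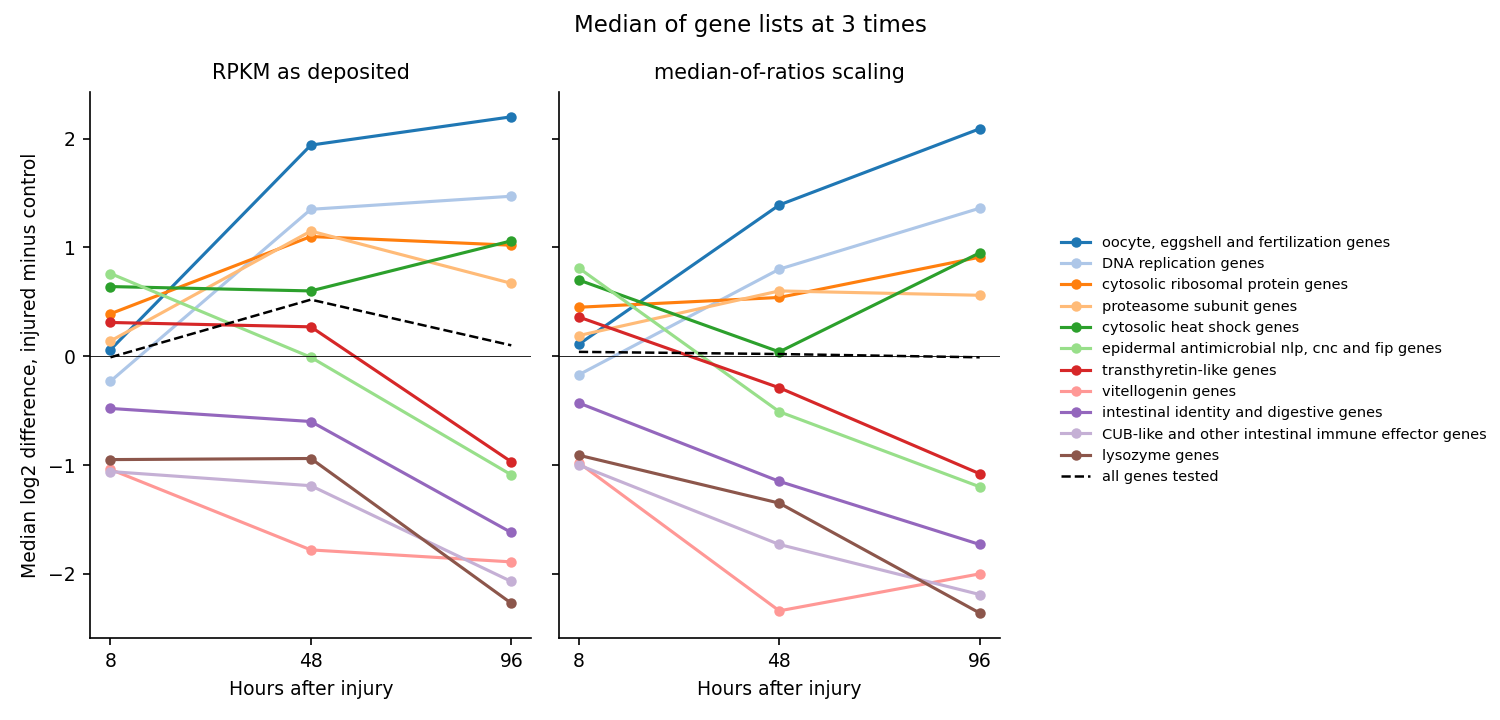
Median log2 difference between injured and control worms (vertical) of 11 gene lists and of all genes (dashed) at 8, 48 and 96 h (horizontal), from RPKM as deposited (left) and after median-of-ratios scaling (right). Oocyte genes reach 2.20 and lysozyme genes -2.27 at 96 h as deposited, and the dashed line at 48 h is at 0.52 on the left and at 0.02 on the right.

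Against 48 h the comparison depended on scaling. As deposited, 2233 genes (16.2%) differed, 91 (0.66%) with a more positive and 2142 (15.5%) with a more negative difference at 96 h, and after median-of-ratios scaling 1149 (8.34%) were more positive and 1064 (7.72%) more negative. Control library 4 of 48 h had 28.4% of its summed RPKM in rRNA genes. The median of the differences was -0.37 as deposited and 0.09 scaled. Without control library 3 of 48 h 3620 genes differed, without injured library 2 of 48 h 1354 and without injured library 4 of 96 h 1295, and without control library 4 of 48 h 230 were more positive. lys-3 had a smaller response at 96 h, with a difference of -1.20 on the log2 scale to 48 h (adjusted p 0.012, and -0.73 scaled), with 78.9 RPKM in injured and 8.88 RPKM in control worms at 48 h. The differences for fos-1 (0.13), vhp-1 (-0.05), cat-2 (0.24) and cdc-25.1 (-0.51) did not pass the threshold. Against 8 h none of these genes passed it as deposited, with -0.57 for lys-3 (adjusted p 0.16) and -0.61 for vhp-1 (adjusted p 0.114), and both did after scaling, at -0.69 (adjusted p 0.0109) and -0.73 (adjusted p 0.0247).

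The largest differences of single genes between 48 and 96 h exceeded the shift from scaling. spp-9, lower at 96 h, had 25.7 ± 17.7 RPKM in control worms of 96 h and 0.22 RPKM in those of 48 h, and its difference of differences was -5.41. ilys-3 (-3.61), lips-13 (-4.48), Y60C6A.2 (-3.88) and pitr-4 (-3.56) were the other most negative. C32H11.9 had -0.53 at 96 h and -4.97 at 48 h, when it averaged 0.222 RPKM in injured and 22.9 RPKM in control worms. acdh-1 (3.98) and the collagen genes col-139 (3.70), col-39 (3.37) and col-129 (3.35) were the other most positive. These 4 genes averaged 0.733 to 2.73 RPKM in control worms of 96 h and 9.72 to 48.8 RPKM in those of 48 h. The calls of col-139 and col-129 were lost under 3 and 1 of 19 alternatives.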

How the data were processed

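RNA was sequenced from whole worms of 6 groups of 4 libraries, and the 8 libraries of 96 h are described. The authors extracted RNA with phenol-chloroform, enriched poly(A) RNA, sequenced paired ends and deposited gene values made with CLC Genomics Workbench as RPKM, and the labels give the genome build as ce11. The counting strand was not given in the sources used here. The deposited table also holds p-values and fold changes of the authors' own comparisons, which were not used. Its columns name group and time but no replicate number, so library numbers follow column order and pair nothing.

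Genes with at least 1 RPKM in at least 4 of the 8 libraries were tested on log2(RPKM + 0.5) with limma 3.58.1 (R 4.3.3; trend and robust set), with 1 mean for each group and Benjamini-Hochberg adjustment over 13781 genes at 0.05. This scale understates the change of low genes. Differences between times came from 1 fit of all 24 libraries. Depth was estimated from the steps between low values, of which 45.7 to 50.4% were whole within 0.1 reads, too few to recover counts. Tables and figures were made with Python 3.11.15, pandas 2.3.3 and matplotlib 3.10.9. The script was tested on simulated data. Gene positions come from Ensembl release 115 (WBcel235), in which 13451 of the 13781 genes were matched.

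The comparison and the 62 gene lists were chosen with earlier results of these data known, and 5 genes were taken off the intestine and pharynx lists after values were seen. Named by rule were fos-1, lys-3, vhp-1, cat-2 and cdc-25.1, the 15 largest rises and 15 largest falls among called genes without overlap and with a mean of at least 5 RPKM in the higher group, up to 6 members of each list with the smallest p, the 5 largest differences between times in each direction, the 5 most abundant genes of each group, the vitellogenins and the cell type markers. Other list members, including all exceptions to a list's direction and all paralogs set beside a named gene, were chosen after their values were seen. The alternatives were pseudocounts of 0.1 and 1, no filter, a filter of 5 RPKM, median-of-ratios scaling, quantile normalization, a fit of all 24 libraries, array weights, a fit without the robust setting, and leaving out each library.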

Additional observations from a re-analysis of the deposited data

Results flagged for a closer look

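For 77 genes, 154 groups of 4 libraries were checked for 1 library far from the other 3. Dixon's criterion was used, which chance meets in about 1 in 20 groups, and 7 met it. These 77 genes were the study's genes, the largest rises and falls, the most abundant genes, the vitellogenins and the cell type markers. Other genes given by library above were not checked. Injured library 2 was the high one for fos-1 (82.3 RPKM), dod-3 (21.05 RPKM), elt-2 (9.46 RPKM) and unc-54 (81.95 RPKM). In control worms, library 3 was high for linc-115 (0.64 RPKM), and library 1 was high for vit-6 (5734.7 RPKM) and low for hsp-16.11 (748.65 RPKM).

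The effect of injury differed between 96 h and 48 h by a test of the difference itself for lys-3 (-1.20 on the log2 scale, 96 h minus 48 h). The largest positive differences were those of C32H11.9 (4.44), acdh-1 (3.98), col-139 (3.70), col-39 (3.37) and col-129 (3.35). The largest negative ones were those of spp-9 (-5.41), lips-13 (-4.48), Y60C6A.2 (-3.88), ilys-3 (-3.61) and pitr-4 (-3.56). Between 96 h and 8 h the largest positive differences were those of C27H5.6 (4.55), acdh-1 (4.31), F13E9.19 (3.89), col-80 (3.44) and B0281.4 (3.43). The largest negative ones were those of fipr-24 (-6.95), C46G7.1 (-6.69), C50F7.5 (-6.07), fipr-22 (-6.03) and fipr-23 (-5.99).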

How the results depend on the processing

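The count of genes that differed at 96 h was 10368 as described and between 8533, with a filter of 5 RPKM, and 11561, with array weights, over the 17 alternatives, and leaving out 1 library gave 9787 to 10729. Of 7333 repeats of the 433 named genes' differences, 7266 kept their direction and side of the threshold, 48 lost the call, 18 gained it and 1 changed direction, that of snb-1, 0.21 under quantile normalization. Median log2 differences of 12 of the 62 lists crossed 0 under some alternative. In 8 of them the median as described lay within 1 SD between libraries of 0, at -0.12 to 0.09. The other 4 changed direction, to 0.40 for sperm genes and 0.04 for F-box genes with the filter of 5 RPKM, and to 0.11 for touch receptor genes and -0.24 for insulin and FOXO pathway genes under quantile normalization. The cause was not tested. The count of genes whose effect differed between 96 h and 48 h was 2233 as described and 1295 to 3620 without 1 library, with 59 to 230 more positive and 1236 to 3543 more negative. The highest total and the most negative differences came without control library 3 of 48 h, and the most positive ones without control library 4 of 48 h. Median-of-ratios scaling gave 1149 more positive and 1064 more negative genes, and a pseudocount of 0.1 gave 60 more positive. Depth is known only as an estimate, so that values near 1 RPKM carry no counting interval. No paired analysis was possible because the columns carry no replicate numbers.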
